A study of Homo sapiens with 27 samples.

Results

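The genes described here are the ID (inhibitor of DNA binding) genes ID1, ID2, ID3 and ID4 together with members of the BMP-SMAD pathway that stand upstream of them or restrain it: the ligands BMP2 and BMP4, the signal-carrying SMAD9, the inhibitory SMADs SMAD6 and SMAD7, and the decoy receptor BAMBI. These 10 genes are 10 of the 24566 rows of the count table and were found there by their Entrez IDs. They were chosen by a value measured in these libraries, the lower ID1 level in the A431 vehicle control than in untreated A431 cells. That comparison is therefore given as a description, with no test for any of the genes, and no test is given for ID1 in any comparison that uses the untreated A431 libraries.

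BMPs are secreted ligands that bring type I and type II receptor kinases together at the cell surface. The receptors phosphorylate SMAD1, SMAD5 and SMAD9, which join SMAD4, enter the nucleus and switch on target genes, among which ID1, ID2 and ID3 are the classical ones. SMAD6 and SMAD7 are themselves induced by the pathway and shut it off, and BAMBI resembles a type I receptor but lacks the kinase domain. The ID proteins carry a helix-loop-helix domain without a DNA-binding region, pair with E proteins such as TCF3, TCF4 and TCF12 and so keep these off their sites; in epithelial cells they are known for their link to proliferation and a less differentiated state.

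RNA sequencing covered 9 groups of 3 biological replicates, all at 48 h. A431, an established human epidermoid carcinoma line, was left untreated, given a vehicle control, CKI (Compound Kushen Injection, an injectable mixture extracted from medicinal plants) at 1 mg/ml, doxorubicin (a DNA-damaging anthracycline), or CKI plus doxorubicin. MDA-MB-231, an established human breast adenocarcinoma line, was left untreated or given CKI at 1 mg/ml, 5-FU (5-fluorouracil, an inhibitor of thymidylate synthesis) at 10 ug/ml, or CKI plus 5-FU. What the vehicle consisted of, and which agent it belongs to, is not in the labels, which also assign no doxorubicin dose to the libraries, and MDA-MB-231 has no vehicle control here.

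Total counts lay between 17757206 and 21756536 in the 15 A431 libraries and between 19871048 and 22809339 in the 12 MDA-MB-231 libraries. KRT5, an epidermal keratin, stood at a mean of 3563 CPM (counts scaled to a common library size across all libraries) in untreated A431 cells and at 0.0819 CPM in untreated MDA-MB-231 cells, and the mesenchymal filament gene VIM at 7.23 and 1733 CPM, which matches the labelled lines. COL1A1, listed as a fibroblast marker expected to be absent, was at 25.0 CPM in untreated A431 and at 14.6 CPM in untreated MDA-MB-231 cells. Untreated MDA-MB-231 replicate 1 stood apart from its group, with a chi-square per degree of freedom of 70.8 and 81.8 against the other replicates, and the vehicle control libraries spread from 9.9 to 28.3, where the highest value in the remaining groups was 5.46. In bulk RNA a change in the share of cells expressing a gene and a change in RNA per cell cannot be told apart.

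The sequence just upstream of the transcription start is shown for ID1, ID2 and ID3, the classical targets, and for SMAD6 and BAMBI, which moved furthest among the feedback inhibitors. RefSeq (GRCh38.p14) gave an entry for 9 of the 10 genes, with 13 starts in all, and none for BMP2. Each line holds the 250 bases before the start, 5' to 3' on the gene's strand, at chr20:31605039-31605288 (+ strand) for ID1, chr2:8681806-8682055 (+ strand) for ID2, chr1:23559502-23559751 (- strand) for ID3, chr15:66701986-66702235 (+ strand) for SMAD6 and chr10:28677271-28677520 (+ strand) for BAMBI. Capitals mark matches, on either strand, to GGCGCC and GGAGCC (GC-rich elements bound by BMP SMADs), GTCTAGAC (a palindromic SMAD element), CCAAT and TATAAA.
ID1: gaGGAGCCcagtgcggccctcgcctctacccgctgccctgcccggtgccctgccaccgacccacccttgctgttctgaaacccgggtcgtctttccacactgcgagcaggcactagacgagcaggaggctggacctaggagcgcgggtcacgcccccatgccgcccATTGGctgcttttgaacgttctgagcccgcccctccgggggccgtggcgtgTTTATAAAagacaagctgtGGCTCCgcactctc
ID2: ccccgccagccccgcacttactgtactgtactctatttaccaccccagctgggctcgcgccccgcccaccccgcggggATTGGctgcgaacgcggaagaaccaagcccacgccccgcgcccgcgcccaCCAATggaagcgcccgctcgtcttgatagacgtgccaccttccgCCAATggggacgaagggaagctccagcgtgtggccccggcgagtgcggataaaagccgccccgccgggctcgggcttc
ID3: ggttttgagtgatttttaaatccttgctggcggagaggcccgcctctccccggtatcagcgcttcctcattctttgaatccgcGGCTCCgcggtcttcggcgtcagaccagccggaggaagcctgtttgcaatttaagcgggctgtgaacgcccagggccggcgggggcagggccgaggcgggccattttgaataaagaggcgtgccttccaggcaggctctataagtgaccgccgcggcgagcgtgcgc
SMAD6: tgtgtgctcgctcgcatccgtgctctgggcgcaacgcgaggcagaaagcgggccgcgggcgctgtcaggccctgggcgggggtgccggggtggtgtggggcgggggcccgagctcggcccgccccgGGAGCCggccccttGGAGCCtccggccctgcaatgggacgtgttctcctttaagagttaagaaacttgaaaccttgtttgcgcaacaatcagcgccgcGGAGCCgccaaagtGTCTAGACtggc
BAMBI: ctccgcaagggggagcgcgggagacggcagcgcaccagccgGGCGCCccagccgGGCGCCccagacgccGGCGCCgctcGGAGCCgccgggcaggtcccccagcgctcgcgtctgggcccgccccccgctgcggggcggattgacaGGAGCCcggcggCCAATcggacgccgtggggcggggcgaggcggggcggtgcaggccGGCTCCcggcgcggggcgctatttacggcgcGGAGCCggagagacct
ID1 held a CCAAT match 84 bases before the start, TATAAA matches at 33 and 31 bases (they overlap, on opposite strands), and GGAGCC matches at 248 and 14 bases. ID2 held 3 CCAAT matches and neither GC-rich element, ID3 held 1 GGAGCC match, and SMAD6 held 3 GGAGCC matches and GTCTAGAC at 12 bases. BAMBI held 3 GGCGCC and 4 GGAGCC matches and 1 CCAAT. Over all 35116 promoter windows of this length, GGCGCC was present in 16.4%, GGAGCC in 30.6%, GTCTAGAC in 0.182%, CCAAT in 32% and TATAAA in 10.7%. These letters describe the windows and do not show that a factor binds there.

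The lines differed widely in which of these genes they expressed. Per length, in CPM per kilobase of transcript, untreated A431 cells carried ID1 at 504, ID3 at 166, ID2 at 13.2, SMAD7 at 5.35, SMAD6 at 2.14, BMP2 at 1.62, BMP4 at 0.218, ID4 at 0.141, SMAD9 at 0.0701 and BAMBI at 0.0470. In this order the libraries of BMP4 and ID4 overlapped, as did those of SMAD9 and BAMBI. Untreated MDA-MB-231 cells were ordered otherwise, with the ligand BMP4 on top at 92.8, then ID1 at 48.9, BAMBI at 10.55, SMAD7 at 4.96, ID3 at 4.90, SMAD6 at 2.16, ID4 at 1.30, BMP2 at 1.035, ID2 at 0.331 and SMAD9 at 0.2935. There the libraries of SMAD7 and ID3 overlapped, as did ID4 with BMP2 and ID2 with SMAD9.

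Between the untreated lines, 6 of the 9 genes other than ID1 met both thresholds used throughout, an adjusted p under 0.05 and a log2 fold change beyond 1 in either direction, with 2 higher in A431 and 4 lower, where 42.9% of the 14848 genes tested did so (22.5% higher and 20.4% lower). ID2 (log2 5.37 ± 0.18 SE, adjusted p = 8.3e-12) and ID3 (5.13 ± 0.13, adjusted p = 6.78e-13) were higher in A431. ID4 (-3.14 ± 0.22, adjusted p = 2.15e-08) and BMP4 (-8.69 ± 0.20, adjusted p = 2.26e-13) were lower in A431. On the low side ID2 rests on 26 counts over the untreated MDA-MB-231 libraries, and ID4 and BMP4 on 28 and 21 over the untreated A431 libraries. These 3 genes passed the filter through other groups, which limits their p values. With at least 10 counts in every library they were not tested and 1 member was called, against 31.3% of all genes tested. BAMBI gave 1, 1 and 2 counts in the untreated A431 libraries against 365, 354 and 369 in MDA-MB-231, and SMAD9 6, 8 and 6 counts in A431 against a sum of 100 in MDA-MB-231. Both are counted among the lower genes but passed the filter only through the MDA-MB-231 libraries, so no p is given for them. SMAD6, SMAD7 and BMP2 did not meet the thresholds, with log2 values of 0.03, 0.16 and 0.69, though BMP2 met them with the vehicle libraries as the A431 side (1.21, adjusted p = 7.32e-06). ID1 stood at 495 ± 13.01 CPM (SD, n = 3) in A431 and 48.1 ± 1.803 CPM in MDA-MB-231, a log2 difference of 3.41 that was not tested. Without untreated MDA-MB-231 replicate 1 the count was also 6. These tests, and those against untreated A431 cells below, share the untreated A431 libraries with the contrast that chose the genes.

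**Figure D1:**
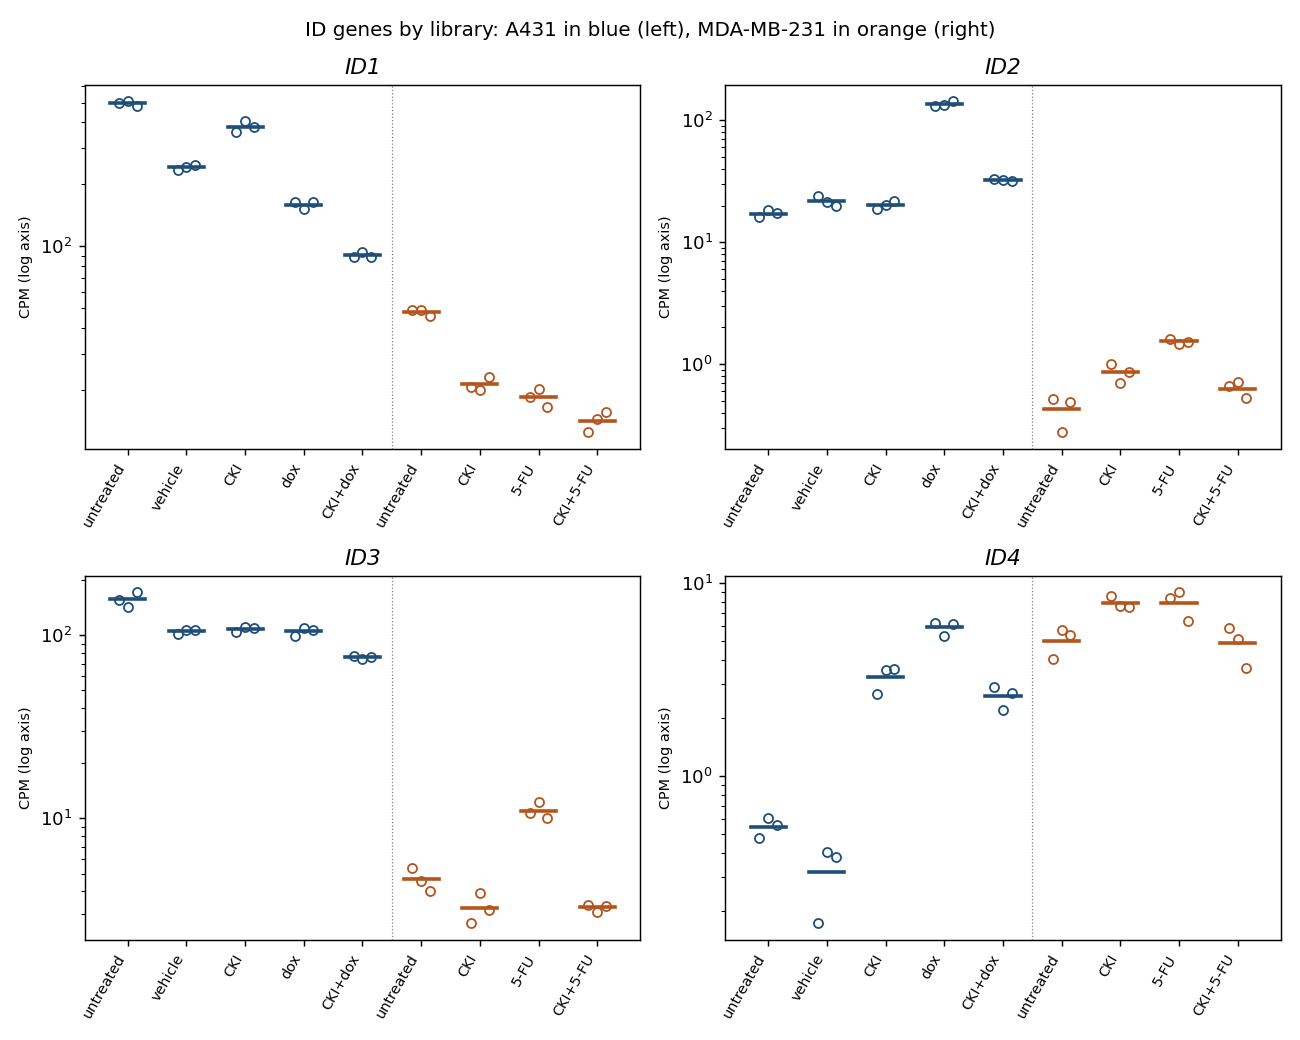
CPM of the 4 ID genes (log axis) in each library, with 3 circles and a bar at the mean per group, A431 in blue and MDA-MB-231 in orange. ID1 is lower in every other A431 group than in untreated cells, and ID2 stands out in the doxorubicin libraries at 131 to 143 CPM.

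ID1 (GRCh37 chr20:30193086-30194318, + strand, 2 exons) was the most abundant member in A431 cells. The untreated libraries held 499, 506 and 481 CPM and the vehicle control libraries 235.5, 242 and 248 CPM, the groups being far apart. The log2 difference was -1.02 ± 0.05 (SE), a linear ratio of 0.492, and this is the value that chose the genes. ID1 alone among the 9 members in this fit passed both numerical limits; 2.54% of the 15881 genes in the fit did so (1.05% higher and 1.5% lower), and nothing is read from this count. SMAD6, the BMP-selective inhibitory SMAD, stood at 8.18 ± 1.02 CPM untreated and 4.15 ± 1.21 CPM with vehicle (log2 -0.96 ± 0.15). ID3 stood at 157 and 105 CPM (-0.57 ± 0.06), BMP2 at 5.74 and 8.15 CPM (0.52 ± 0.13) and ID2 at 17.2 and 21.7 CPM (0.35 ± 0.08), while SMAD7 differed by 0.16 ± 0.09. BMP4, ID4, SMAD9 and BAMBI summed to 10, 18, 6 and 2 counts over the vehicle libraries and to 21, 28, 20 and 4 over the untreated ones.

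The fold changes of this contrast moved with base composition across the transcriptome. Spearman's rho of log2 fold change with GC content was -0.58 over the 15881 genes, and with transcript length 0.308, a description across genes that are not independent. The ID1 transcript has 57.9% GC over 983 bases and that of ID3 56.7% over 950 bases. With offsets for GC content and length the ID1 difference was -0.71 and that of ID3 -0.29, and no member then passed both limits. The direction for ID1 was lower in the vehicle control in each alternative run, from -1.06 to -0.71, and the part of RNA or library quality in it was not tested.

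ID4 and BMP4, both at low counts, were higher with CKI alone than in untreated A431 cells. ID4 rose from 0.478, 0.604 and 0.557 CPM in the untreated libraries to 2.65, 3.53 and 3.60 CPM, with no overlap (log2 2.46 ± 0.25, adjusted p = 8.6e-09). BMP4 rose from 0.299, 0.220 and 0.743 CPM to 1.02, 0.789 and 1.29 CPM (1.22 ± 0.37, adjusted p = 0.00642), values that rest on 21 and 58 counts. The ID4 values rest on 28 and 183 counts. Neither gene reached the count filter in untreated A431 cells, and in A431 both passed it through libraries with CKI, doxorubicin or both. The filter thus favoured a rise of both, which limits their p values in every comparison with untreated A431 cells. With at least 10 counts in every library neither was tested and 0 members were called for CKI, against 19.8% of all genes tested. ID3, at 156, 144 and 172 CPM untreated and 104, 111 and 110.1 CPM with CKI, was lower by less than the fold threshold (-0.63 ± 0.06, adjusted p = 8.56e-09). BMP2 (0.76 ± 0.13) and SMAD7 (0.44 ± 0.09) had adjusted p values under 0.05 without reaching the fold threshold, ID2 (0.14) and SMAD6 (-0.30) had adjusted p of 0.131 and 0.0624, and BAMBI had 7 counts against 4. In all, 2 of the 9 genes besides ID1 rose and none fell by both thresholds, where 22.4% of all genes tested did (12% higher and 10.4% lower). SMAD9, at 0 to 5 counts per CKI library, did not pass the count filter in A431. The summed level of the 4 mesenchymal markers was 677 to 726 CPM in untreated and 1125 to 1184 CPM in CKI libraries, that of the 4 markers expected to be absent 21.85 to 29.57 and 48.51 to 53.31 CPM, and that of the 6 keratinocyte markers 6838 to 7375 and 7977 to 8432 CPM. Their part in the result was not tested.

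Which control is used decided what ID1 showed under CKI. The CKI libraries held 358, 405 and 381 CPM, below all untreated and above all vehicle control libraries. The log2 difference was -0.47 ± 0.05 against untreated cells and 0.56 against the vehicle control, and -0.04 against untreated cells with GC and length offsets; these are values with no test. ID3 under CKI (104 to 111 CPM) overlapped the vehicle control (102 to 107 CPM). BMP2 differed from the vehicle control by 0.24 (adjusted p = 0.0819). SMAD6, lower with CKI than in untreated cells on average, was higher than in the vehicle control, at 6.92 to 7.13 CPM against 2.77 to 5.02 CPM. The call for ID4 held against either control. The BMP4 call was lost without untreated replicate 2 (log2 0.89, adjusted p = 0.0545).

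**Figure D2:**
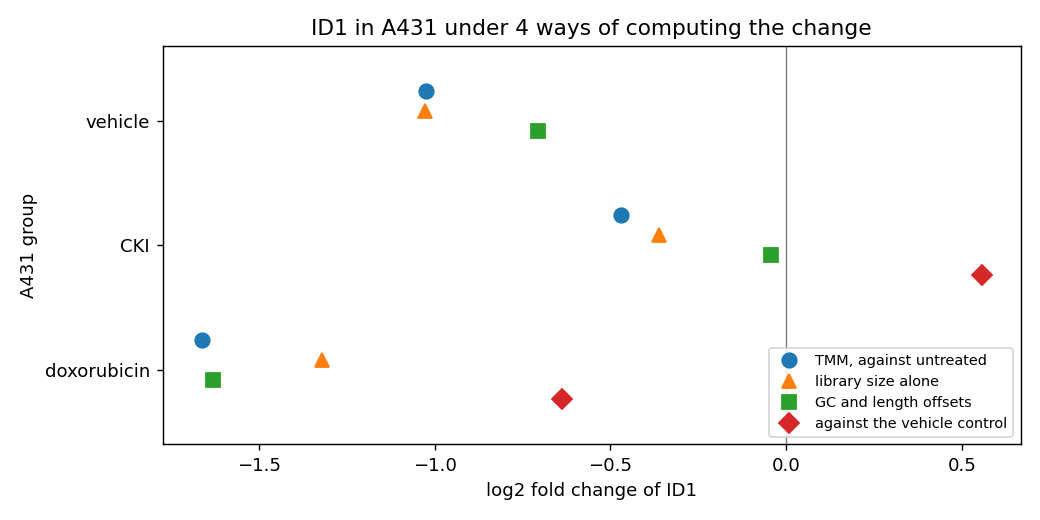
Log2 fold change of ID1 (x axis) in the A431 vehicle control, CKI and doxorubicin groups (y axis), computed in 4 ways: against untreated cells with TMM factors, with library size alone or with GC and length offsets, and against the vehicle control. The CKI value runs from -0.47 against untreated cells to 0.56 against the vehicle control, and the doxorubicin value from -1.66 to -0.64.

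Doxorubicin separated ID1 from ID2 and ID4. ID2 (GRCh37 chr2:8818975-8824591, + strand, 3 exons) rose from 16.01, 18.2 and 17.3 CPM in untreated cells to 131, 134 and 143 CPM, a log2 change of 2.95 ± 0.08 and a linear ratio of 7.75 (adjusted p = 1.54e-19). ID4 rose from 0.546 ± 0.0639 to 5.88 CPM (3.38 ± 0.23, adjusted p = 4.31e-12). ID1 went the other way, from 495 to 163, 151 and 164 CPM (log2 -1.66 ± 0.06, no test), all below the vehicle control as well, against which the difference was -0.64. ID3 was at 99.3, 109.5 and 107.5 CPM (log2 -0.60 ± 0.06, adjusted p = 1.31e-08, under the fold threshold), which overlapped the vehicle control.

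The ligands BMP2 and BMP4 rose together with ID2 and ID4 under doxorubicin, and the decoy receptor went from near 0 to several CPM. The further ligand BMP7, described below, fell. BMP2 rose from 4.90, 5.88 and 6.44 CPM to 22.95, 20.1 and 20.9 CPM (1.87 ± 0.12, adjusted p = 1.83e-12) and BMP4 from 0.420 ± 0.282 to 6.43 CPM (3.92 ± 0.26, adjusted p = 4.84e-12). BAMBI went from 1, 1 and 2 counts to 175, 115 and 138 counts. It passed the count filter in A431 only through the libraries with doxorubicin, so no p is given for it against groups without the drug, although it is one of the genes counted. The ratio of summed counts per library size was 112, with an exact 95% interval of 43.6 to 415 that covers counting error only. SMAD6 (0.57 ± 0.13, adjusted p = 0.000409) and SMAD7 (0.56 ± 0.09, adjusted p = 6.53e-06) were higher by less than the fold threshold, though SMAD6 met it against the vehicle control (1.53, adjusted p = 1.49e-09). In all, 5 of the 9 genes besides ID1, BAMBI included, rose and none fell, where 37.3% of all genes tested passed (23% higher and 14.3% lower). SMAD9 was not tested. ID4 and BMP4 had 28 and 21 counts over the untreated libraries and, like BAMBI, passed the filter through libraries where they were higher. With at least 10 counts in every library these 3 were not tested and 2 members were called, against 25.6% of all genes tested. Of 6 keratinocyte markers listed for the line 3 rose and 2 fell in the same comparison, their summed level being 6838 to 7375 CPM in untreated and 6347 to 6507 CPM in doxorubicin libraries. Of 4 mesenchymal markers 2 rose, with sums of 677 to 726 and 554.9 to 593 CPM. PTPRC, a leukocyte marker, was at 0 counts in the untreated libraries and at 80 in all with doxorubicin, while the summed level of the 4 listed markers expected to be absent was 21.85 to 29.57 and 41.8 to 47.9 CPM. The part of these markers in the result was not tested.

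**Figure D3:**
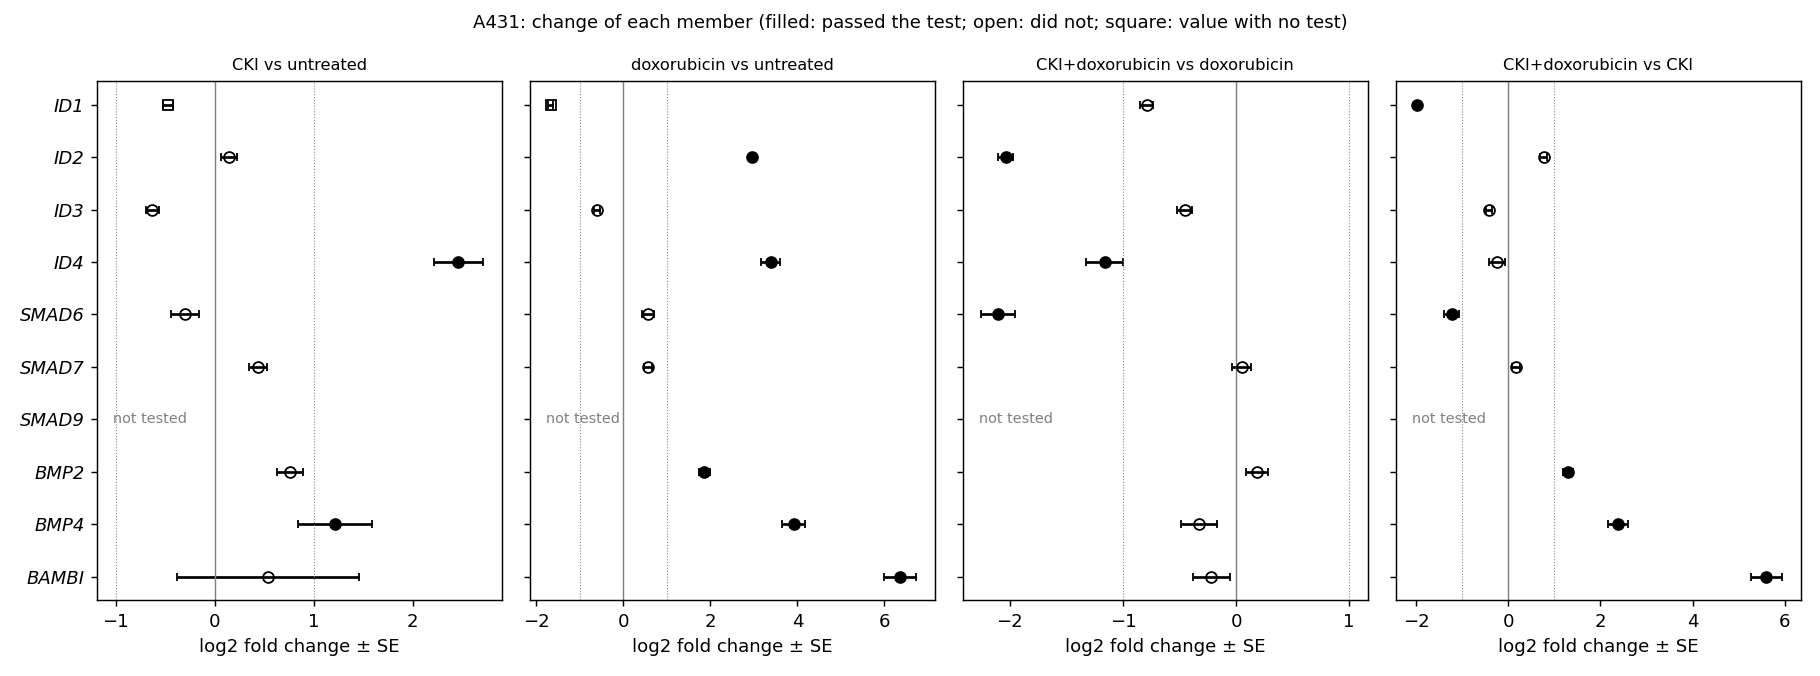
Log2 fold change ± SE of each member (rows) in 4 A431 comparisons (panels). Filled points met both thresholds, squares are ID1 values with no test, and SMAD9 was not tested. Fitted BAMBI values against untreated or CKI-treated cells rest on 0 to 4 counts per library there, and no p is given for them, filled or not. BAMBI, BMP4, ID4 and ID2 lie furthest right under doxorubicin, and ID2, SMAD6 and ID4 are filled on the left when CKI was added to doxorubicin.

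Adding CKI to doxorubicin lowered ID2, SMAD6 and ID4 and left BMP2 and BMP4 near their doxorubicin level. ID2 fell from 131, 134 and 143 CPM to 33.3, 32.5 and 32.05 CPM (log2 -2.04 ± 0.07, adjusted p = 1.3e-16), which was still above every untreated library. SMAD6 fell from 12.3, 11.7 and 13.01 CPM to 2.55, 3.05 and 2.90 CPM (-2.10 ± 0.15, adjusted p = 3.6e-11). These values lay below every untreated library but overlapped the vehicle control (2.77 to 5.02 CPM). Under doxorubicin alone SMAD6 had not met the fold threshold against untreated cells. ID4 fell from 6.21, 5.31 and 6.13 CPM to 2.88, 2.19 and 2.70 CPM (-1.16 ± 0.16, adjusted p = 1.42e-06). ID1, tested here because neither group took part in choosing it, was at 89.2, 94.2 and 89.1 CPM, lower than all doxorubicin libraries but by less than the fold threshold (-0.79 ± 0.06, adjusted p = 3.34e-11), and so was ID3 (-0.45 ± 0.07, adjusted p = 2.45e-06). BMP2 (0.18), BMP4 (-0.32), BAMBI (-0.22) and SMAD7 (0.05) had adjusted p values from 0.0812 to 0.641. Thus 3 of 10 members fell and none rose, where 14.9% of all genes tested passed (6.89% higher and 8.03% lower).

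Against CKI alone, the combination showed lower ID1 and SMAD6 and higher BMP2 and BMP4. ID1 fell from 358, 405 and 381 CPM to 89.2, 94.2 and 89.1 CPM, the lowest of any A431 group (log2 -1.98 ± 0.06, linear ratio 0.253, adjusted p = 2.8e-18). SMAD6 fell (-1.23 ± 0.16, adjusted p = 5.31e-07), while BMP2 (1.29 ± 0.11, adjusted p = 2.79e-10) and BMP4 (2.38 ± 0.22, adjusted p = 2.06e-09) rose. BAMBI went from 3, 4 and 0 counts to 131, 137 and 107 counts, also with no p, a ratio of summed counts of 59.1 with an exact 95% interval of 28.4 to 148. ID2 was higher by less than the fold threshold (0.77 ± 0.08, adjusted p = 5.92e-09). In total 3 of 10 members, BAMBI included, rose and 2 fell, where 25.7% of all genes tested passed (16.6% higher and 9.06% lower).

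The interaction of CKI and doxorubicin, that is the difference between the CKI effect with and without doxorubicin, was negative for 4 of the 9 genes besides ID1, where 19.5% of all genes tested passed (8.56% positive and 10.9% negative). The largest was ID4 (-3.62 ± 0.30, adjusted p = 6.88e-10), which rose with CKI alone and fell when CKI was added to doxorubicin. ID2 (-2.18 ± 0.11, adjusted p = 1.91e-13), SMAD6 (-1.80 ± 0.21, adjusted p = 1.38e-07) and BMP4 (-1.54 ± 0.41, adjusted p = 0.00251) followed. For ID1 the value was -0.32 ± 0.08 with untreated cells as the base and -1.35 with the vehicle control, and neither was tested.

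**Figure D4:**
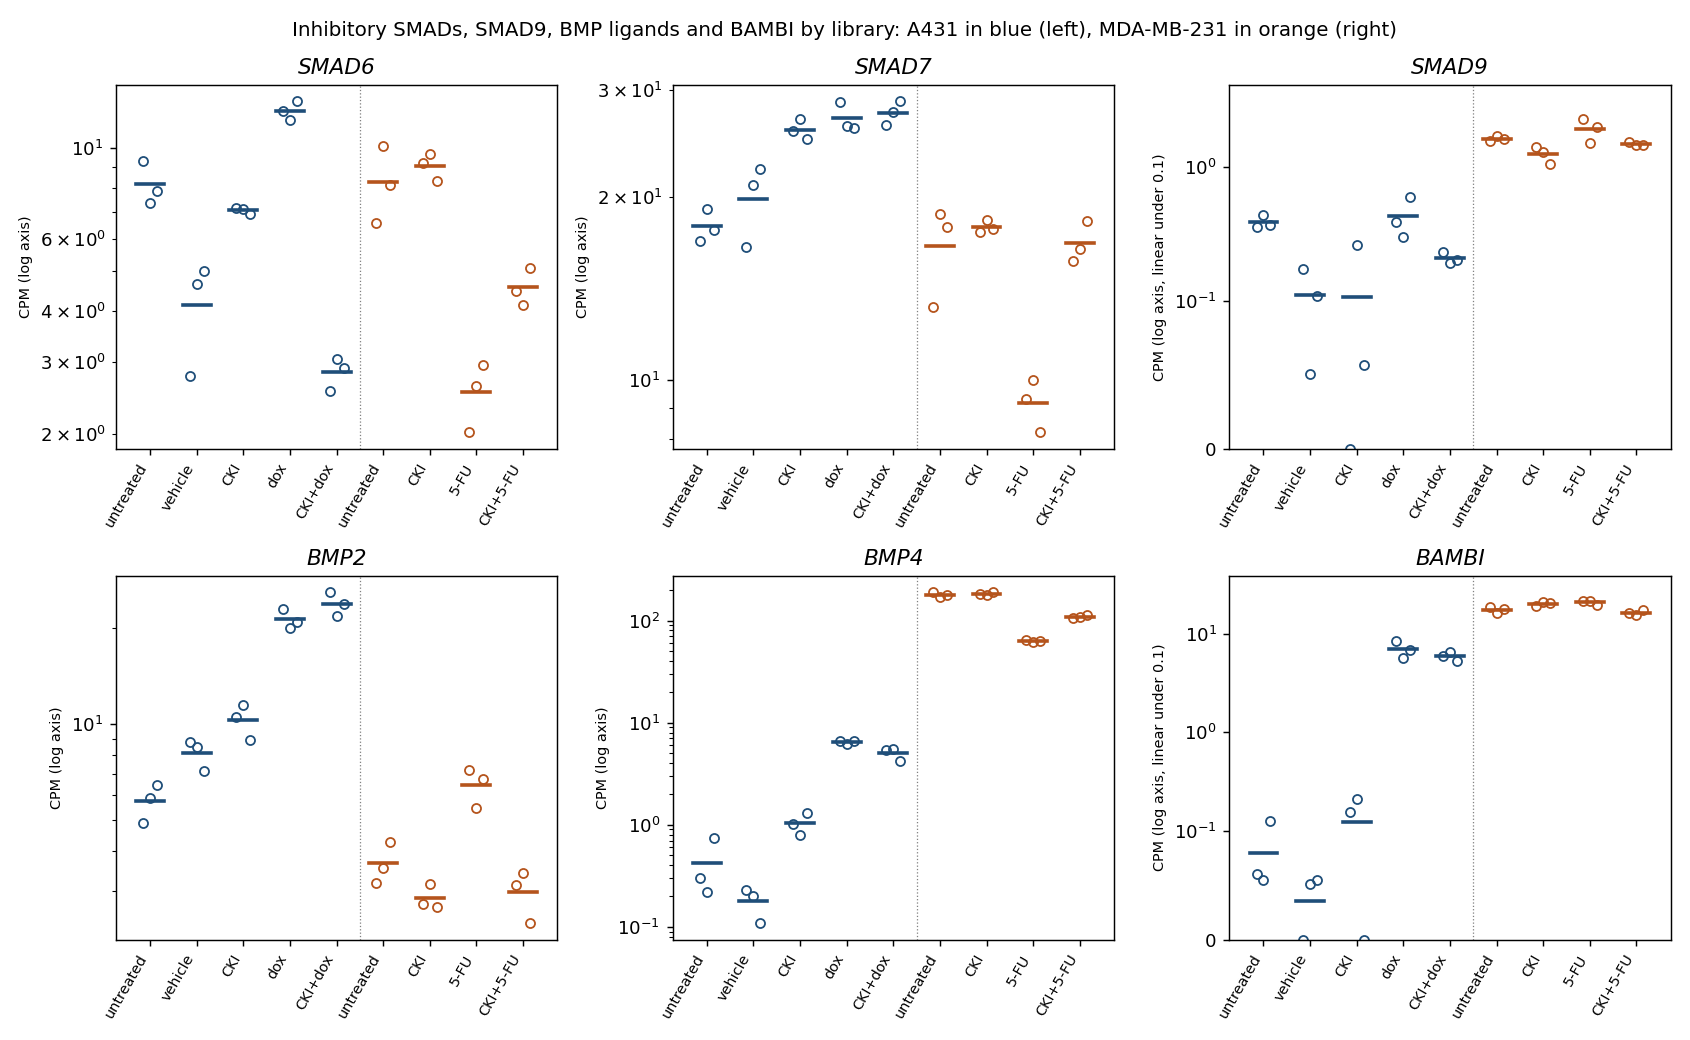
CPM of SMAD6, SMAD7, SMAD9, BMP2, BMP4 and BAMBI in each library, 3 circles and a bar at the mean per group, A431 in blue and MDA-MB-231 in orange (log axes, linear under 0.1 CPM where a library is at 0). BMP4 and BAMBI sit at or below 1.29 CPM in untreated, vehicle and CKI-treated A431 cells and between 4.20 and 8.56 CPM in the libraries with doxorubicin.

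In MDA-MB-231 cells ID1 was lower with CKI than in untreated cells, in libraries that took no part in choosing the genes. In A431 the vehicle control itself held less ID1 than untreated cells (log2 -1.02). MDA-MB-231 had no vehicle control, so an effect of CKI and one of a vehicle cannot be told apart in this line. The untreated libraries held 49.0, 49.3 and 46.0 CPM and the CKI libraries 20.75, 20.1 and 23.1 CPM, with no overlap (log2 -1.18 ± 0.10, linear ratio 0.440, adjusted p = 3.62e-06). Without untreated replicate 1, the library that stands apart, the value was -1.17 (adjusted p = 1.23e-11). ID1 was the only one of 10 members called, where 5.96% of all 13999 genes tested were (3.76% higher and 2.21% lower). ID2, at 0.522, 0.2765 and 0.492 CPM untreated and 1.01, 0.698 and 0.8575 CPM with CKI, lay at the edge of the fold threshold (0.98 ± 0.28, adjusted p = 0.0157), and passed it without untreated replicate 1 (1.14), without untreated replicate 3 (1.10) or without CKI replicate 2 (1.12). These ID2 values rest on 26 and 52 counts. In this line ID2 did not reach the count filter in untreated cells and passed it through the treated libraries. This limits its p values in every comparison with untreated MDA-MB-231 cells. ID3 (-0.52, adjusted p = 0.0247) and ID4 (0.64, adjusted p = 0.0187) did not reach it. SMAD6, SMAD7, SMAD9, BMP2, BMP4 and BAMBI had adjusted p values from 0.0888 to 0.82. The summed level of the 4 mesenchymal markers was 2351 to 2894 CPM in untreated, 1545 to 1621 CPM in CKI, 1937 to 2021 CPM in 5-FU and 1600 to 1659 CPM in CKI+5-FU libraries. That of the 4 markers expected to be absent was 8.719 to 19.31 CPM in untreated and 27.33 to 31.1 CPM in CKI libraries. The part of these markers in the MDA-MB-231 results was not tested.

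5-FU changed more members than CKI did, in both directions. ID1 fell to 18.45, 20.3 and 16.6 CPM (log2 -1.38 ± 0.10, adjusted p = 3.31e-07). ID3 rose from 5.38, 4.56 and 4.03 CPM to 10.7, 12.25 and 10.0 CPM (1.24 ± 0.14, adjusted p = 1.51e-05) and ID2 rose to 1.61, 1.48 and 1.52 CPM (1.84 ± 0.25, adjusted p = 5.61e-05). The ID2 values rest on 98 counts with 5-FU and 26 in untreated cells, where the gene did not reach the count filter, so its p value is limited. BMP4, the most abundant member per length in this line, fell from 189, 171 and 177 CPM to 64.3, 62.1 and 62.5 CPM (-1.51 ± 0.06, adjusted p = 4e-09). SMAD6 fell from 6.58, 10.1 and 8.11 CPM to 2.02, 2.62 and 2.96 CPM (-1.71 ± 0.18, adjusted p = 7.84e-06). SMAD7 (-0.86 ± 0.13, adjusted p = 0.000132), BMP2 (0.81 ± 0.16, adjusted p = 0.000937), ID4 (0.65 ± 0.19, adjusted p = 0.0104) and BAMBI (0.25 ± 0.08, adjusted p = 0.0183) stayed under the fold threshold, and SMAD9 had an adjusted p of 0.257. Without untreated replicate 1 the values were -1.37 for ID1, 1.996 for ID2, 1.35 for ID3, -1.47 for BMP4 and -1.85 for SMAD6, and 5 members were called. In total 2 of 10 members rose and 3 fell, where 13.3% of all genes tested passed (6.01% higher and 7.31% lower).

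Adding CKI to 5-FU lowered the ID genes that 5-FU had raised. ID3 fell from 10.7, 12.25 and 10.0 CPM to 3.39, 3.07 and 3.34 CPM (log2 -1.75 ± 0.15, adjusted p = 2.1e-06), below all untreated libraries. ID2 fell to 0.658, 0.712 and 0.525 CPM (-1.27 ± 0.23, adjusted p = 0.000646) and BMP2 from 7.18, 5.48 and 6.72 CPM to 3.15, 3.43 and 2.39 CPM (-1.11 ± 0.16, adjusted p = 0.000149); the BMP2 value moved to -0.97 without CKI+5-FU replicate 3. SMAD6 (0.85), SMAD7 (0.87) and BMP4 (0.80) were higher by less than the fold threshold, with adjusted p values of 0.0029, 0.000153 and 6.21e-07, and BMP4 at 107, 109 and 113 CPM lay between the 5-FU and the untreated libraries. ID1 (-0.38 ± 0.10, adjusted p = 0.00874), ID4 (-0.70, adjusted p = 0.00811) and BAMBI (-0.35, adjusted p = 0.00349) were lower without reaching it, and SMAD9 had an adjusted p of 0.101. In total 3 of 10 members fell and none rose, where 9.77% of all genes tested passed (5.26% higher and 4.51% lower).

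Between the combination and CKI alone no member met both thresholds with edgeR or with DESeq2, where 3.81% of all genes tested did (1.26% higher and 2.54% lower). At an unadjusted p under 0.05 there were 5 of 10 members, against 50.4% of all genes. SMAD6 came closest to the fold threshold (-0.98 ± 0.17, adjusted p = 0.000792) and passed it without CKI replicate 3 (-1.04) or without CKI+5-FU replicate 3 (-1.07). BMP4 (-0.73 ± 0.06, adjusted p = 5.05e-06), ID4 (-0.69 ± 0.19, adjusted p = 0.0113) and ID1 (-0.58 ± 0.10, adjusted p = 0.000975) followed, with ID1 at 12.5, 14.4 and 15.7 CPM, below all CKI libraries. Fold changes of this comparison also moved with GC content over the genes tested, with a Spearman's rho of -0.517.

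**Figure D5:**
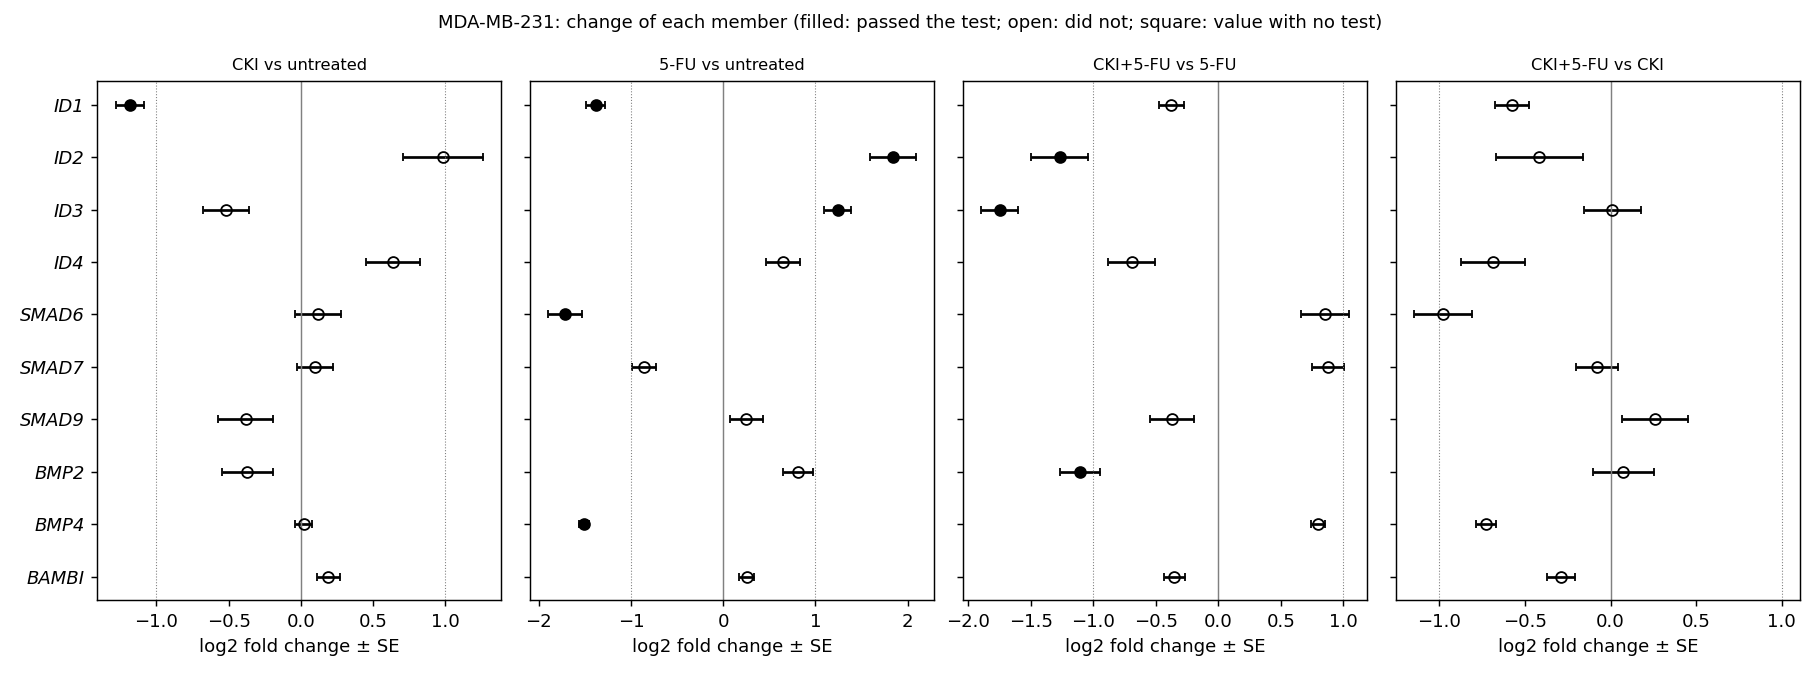
Log2 fold change ± SE of each member (rows) in 4 MDA-MB-231 comparisons (panels), with filled points for those that met both thresholds. ID1 is filled on the left under CKI and under 5-FU, ID2 and ID3 are filled on the right under 5-FU and on the left when CKI was added, and no point is filled between the combination and CKI alone.

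The interaction of CKI and 5-FU was negative for ID2 (-2.25 ± 0.36, adjusted p = 0.000687), ID4 (-1.33 ± 0.26, adjusted p = 0.00262) and ID3 (-1.23 ± 0.22, adjusted p = 0.0014), 3 of 10 members and also 3 without untreated replicate 1 (-2.41, -1.20 and -1.34), where 6.84% of all genes tested passed (3.04% positive and 3.81% negative). For ID1 it was positive and under the fold threshold (0.81 ± 0.14, adjusted p = 0.00122), the combination lying less far below 5-FU than CKI alone lay below untreated cells. ID2 and ID4 thus had a negative interaction of CKI with the second drug in each line, and ID3 in MDA-MB-231 (in A431 0.18, adjusted p = 0.104). The ID2 value in MDA-MB-231 rests on 26 counts in untreated cells, which limits its p value. The drugs and lines differ together here, so the interactions of the lines were not tested against each other.

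CKI was the agent that both lines shared. Its effect differed between the lines for ID4 (log2 1.83 ± 0.29 more positive in A431, adjusted p = 0.000183), BMP2 (1.13 ± 0.23, adjusted p = 0.00108) and BMP4 (1.21 ± 0.36, adjusted p = 0.0136), 3 of the 9 genes besides ID1, where 18.5% of all genes tested passed (8.87% more positive and 9.62% more negative in A431). With the vehicle control as the A431 base the BMP2 value was 0.62 and no longer passed, ID2 passed (-1.18, adjusted p = 0.00829), and without untreated A431 replicate 2 the BMP4 value was 0.97. SMAD9 had 6 counts over the A431 CKI and 20 over the untreated A431 libraries and passed the filter only through MDA-MB-231, so no p is given for it. Its value was -1.52, and it was -3.27 without A431 CKI replicate 2 and -1.77 with the GC offsets. The ID1 value was 0.72 ± 0.10 and was not tested.

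Other parts of the pathway were counted with the same thresholds, from lists that were written with earlier results of these data known. Of 11 BMP receptors and co-receptors, 10 passed the count filter in A431 and 5 rose with CKI, among them BMPR1B (2.22 ± 0.24, adjusted p = 2.14e-08), RGMA (1.65 ± 0.35, adjusted p = 0.000197) and ACVRL1 (1.57 ± 0.30, adjusted p = 8.32e-05), and none fell, where 12% of all genes tested rose and 10.4% fell; their median log2 change was 0.84 against 0.003 over all genes tested. In MDA-MB-231 the median over the 8 that passed the filter was -0.023 under CKI and -0.037 under 5-FU. Among 17 secreted BMP antagonists, 10 of them past the filter in A431, doxorubicin raised 5 and lowered 1, where 23% of all genes tested rose and 14.3% fell. The mean of FSTL1, a follistatin-like protein, went from 101 to 754 CPM (2.87 ± 0.06, adjusted p = 2.34e-21) and GREM1, which binds BMP2 and BMP4, from 1 count over 3 libraries to 63 counts, a gene that passed the count filter only through the libraries with doxorubicin, so no test is drawn from it. FST, which encodes follistatin, fell with CKI from 123.5 to 25.4 CPM (-2.37 ± 0.07, adjusted p = 1.66e-18) and again when CKI was added to doxorubicin, from 145 to 33.6 CPM (-2.09 ± 0.06, adjusted p = 2.54e-17). With CKI 2 of the 10 antagonists rose and 2 fell, where 12% of all genes tested rose and 10.4% fell. When CKI was added to doxorubicin 3 fell and 0 rose, where 8.03% of all genes tested fell and 6.89% rose.

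In MDA-MB-231 the antagonist gene NOG, which encodes noggin, fell with 5-FU from 59.4 to 22.3 CPM (-1.41 ± 0.09, adjusted p = 1.48e-07) and rose to 66.9 CPM when CKI was added (1.58 ± 0.09, adjusted p = 1.13e-07). Of 12 antagonists past the filter there, 1 fell and 0 rose with 5-FU, where 7.31% of all genes tested fell and 6.01% rose. When CKI was added 2 rose and 1 fell, where 5.26% of all genes tested rose and 4.51% fell. SMURF2, a ubiquitin ligase that acts on SMADs and their receptors, fell from 311 to 124 CPM with 5-FU (-1.33 ± 0.06, adjusted p = 6.66e-09) and rose to 287 CPM in the combination (1.21 ± 0.06, adjusted p = 1.97e-08); it was the one called member of 12 other SMADs and SMAD regulators in each of these comparisons, where 13.3% of all genes tested passed with 5-FU and 9.77% when CKI was added. Of 11 partners and relatives of the bHLH family, 7 passed the filter in A431 and 4 fell with doxorubicin, among them the E proteins TCF12 (-1.44 ± 0.07, adjusted p = 4.6e-14) and TCF3 (-1.36 ± 0.11, adjusted p = 7.46e-11), and none rose, where 14.3% of all genes tested fell and 23% rose. Of 8 other BMP target factors past the filter in A431, doxorubicin raised 3 and lowered 2, where 37.3% of all genes tested passed, with DLX3, a homeobox factor, going from 1.20 to 11.3 CPM (3.20 ± 0.17, adjusted p = 4.75e-14). BMP7, the most abundant further ligand of A431, fell with CKI (-1.95 ± 0.11, adjusted p = 1.19e-13) and with doxorubicin (-2.40 ± 0.11, adjusted p = 3.42e-15) from 89.4 CPM.

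The genes whose level followed ID1 most closely over the 27 libraries, centred within each line, were HTRA3 (Pearson r = 0.962), KCNN4 (0.951), DHRS3 (0.95), CTDSP1 (0.929) and BMP1 (0.918), out of 13373 genes. Within the 15 A431 libraries they were C1R (0.991), CSTPP1 (0.974), PTPRS (0.973), RBPMS (0.972) and ERBB2 (0.972), and within the 12 MDA-MB-231 libraries S100A16 (0.989), GAPDH (0.988), LGALS1 (0.988), TIMP3 (0.986) and KRT8 (0.985). Among the members ID3 was closest in A431 (0.874) and stood at 0.011 in MDA-MB-231, while ID2 was at -0.555 in A431 and -0.55 in MDA-MB-231. Over all 27 libraries the ligands BMP2 and BMP4 were at -0.659 and -0.479, and SMAD6 and ID3 at 0.473 and 0.341. These values describe libraries that fall into treatment groups and share normalization, and carry no test.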

How the data were processed

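The file deposited by the authors holds raw counts of reads for each gene in 27 libraries of 9 groups with 3 replicates each. Per the labels, reads from unstranded paired-end libraries were trimmed with Trim Galore 0.3.7 and aligned to hg19 (GRCh37) with STAR 2.5.3a, and edgeR was used. The counting tool, its annotation and its strand setting are not given in the sources used here, so overlapping and antisense genes are uncertain. Groups were taken from the sample labels.

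Of 24566 rows, 1597 had no count. Symbols were matched for 24422 Entrez IDs through a RefSeq table (GRCh38.p14, names and promoter sequences only), and transcript length and GC content were taken from an annotation of GRCh37 for 99.5% of rows. Counts were tested with edgeR 4.0.16 in R 4.3.3 (TMM factors, filterByExpr, glmQLFit, glmQLFTest, Benjamini-Hochberg adjustment), with thresholds of adjusted p under 0.05 and log2 fold change beyond 1 in either direction. All groups of a line entered 1 fit, and comparisons of the lines used the untreated and CKI libraries of both. SE is the fold change divided by the square root of the quasi-likelihood F. Levels are CPM with TMM factors over all 27 libraries, so ratios of levels can differ slightly from the fitted folds. The correlation with ID1 used log2 CPM with a prior count of 2. Exact (Clopper-Pearson) 95% intervals cover counting error only. The fits were tested on simulated data. Every replicate pair differed by more than counting noise. The replicates are described as biological, with no word on separate experiments, so p-values measure the spread between these libraries.

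The members and gene lists were chosen with earlier results of these data known. All 10 members are named, with up to 3 called genes of largest change per pathway list and comparison, of which a part is given, and the genes of highest correlation with ID1. Alternatives were DESeq2 1.42.0, RLE factors, library size alone, no filter, at least 10 counts in every library, only the compared groups, the adjusted p alone, a replicate block, lowess offsets for GC and length (span 0.3), leaving out each library, and the vehicle libraries as the A431 control.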

Additional observations from a re-analysis of the deposited data

Results flagged for a closer look

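The effect of CKI differed with the second drug or the line, by a test of the difference itself, for 10 of the values. In A431 the interaction of CKI and doxorubicin on the log2 scale was -2.18 for ID2, -3.62 for ID4, -1.80 for SMAD6 and -1.54 for BMP4. These are 4 of the 9 genes besides ID1, where 19.5% of all genes tested passed. In MDA-MB-231 the interaction of CKI and 5-FU was -2.25 for ID2, -1.23 for ID3 and -1.33 for ID4, 3 of 10 members against 6.84% of all genes. Between the lines the CKI effect was more positive in A431 by 1.83 for ID4, 1.13 for BMP2 and 1.21 for BMP4. These are 3 of the 9 genes besides ID1, against 18.5% of all genes. The BMP2 value was 0.62 with the vehicle control as the A431 base, and the BMP4 value 0.97 without untreated A431 replicate 2. Neither then passed.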

How the results depend on the processing

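Of 1568 fold changes of members recomputed under another setting, 1491 kept their direction and their side of the thresholds. With at least 10 counts in every library, the members called against untreated A431 were 0 for CKI (19.8% of all genes tested) and 2 for doxorubicin (25.6%). They were 3 for the A431 combination against CKI (14.7%) and 2 for CKI by doxorubicin (17%). Line by CKI gave 1 (18%), as did the comparison between the lines (31.3%). Fewer genes were then tested. ID4, BMP4, SMAD9 and BAMBI were not tested in A431 or between the lines, nor was ID2 in MDA-MB-231 or between the lines. With the adjusted p alone the members called in A431 were 5, 8 and 5 for CKI, doxorubicin and the combination against doxorubicin. Of all genes tested 67%, 80.6% and 63.6% passed there. In MDA-MB-231 they were 4 for CKI (36.2% of all genes), 9 for 5-FU (57.1%) and 9 for the combination against 5-FU (50.4%). The combination against CKI gave 5 (42.1%) and the interaction 9 (31.4%). GC and length offsets, alone or with the replicate block, gave 0 for the vehicle control and 2 for CKI in MDA-MB-231, as did library size alone (2) for the latter. Leaving out 1 library gave 1 to 3 for the vehicle control (3 without untreated replicate 2), 1 to 2 for CKI in either line, 2 to 4 for line by CKI, 2 to 3 for the MDA-MB-231 combination against 5-FU and 0 to 1 against CKI. Nothing is read from the counts of members for the vehicle control, since that contrast chose the genes. The line by CKI value of SMAD9 turned from -1.52 to 0.26 with the vehicle control, and the cause was not tested. The replicate numbers did not pair the samples (mean correlation of same-numbered deviations -0.004 in A431 and -0.038 in MDA-MB-231), and the replicate block left each count of members as it was, for example 5 for doxorubicin and 3 for line by CKI. Over all genes, with at least 10 counts in every library the calls went from 404 to 174 for the vehicle control, from 5925 to 3197 for doxorubicin, from 2369 to 1431 and from 4077 to 1837 for the A431 combination against doxorubicin and against CKI (6171 with no filter), from 835 to 504 for CKI in MDA-MB-231, from 1368 to 903 and from 533 to 340 for that line's combination against 5-FU and against CKI, and from 6367 to 3631 between the lines. Offsets for GC and length gave 244 for the vehicle control (233 with the replicate block) and 343 for the MDA-MB-231 combination against CKI, and a fit of only the compared groups gave 263 for the vehicle control. The adjusted p alone called between 4396 and 12802 genes per comparison. Library size alone moved the share of calls that were higher from 61.6% to 78.3% for doxorubicin (where the median of all genes moved from 0.017 to 0.361), from 64.7% to 76.7% for the A431 combination against CKI, from 44% to 33% for CKI by doxorubicin, from 45.1% to 59.8% for 5-FU and from 33.2% to 45.8% for the MDA-MB-231 combination against CKI, and offsets moved it from 41.1% to 62.3% for the vehicle control. With at least 10 counts in every library that share was 44% for the A431 combination against CKI, 50.6% for doxorubicin and 59.2% for the vehicle control.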
